A study of Mus musculus with 8 samples.

Results

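The genes described here are 35 members of the integrated, mitochondrial and endoplasmic reticulum (ER) stress responses, read from 43239 named entries in the quadriceps RNA of mice. They were listed by name and fall into 3 arms. The ATF4 arm holds 12 genes: the transcription factor genes Atf4, Atf5 and Ddit3, targets of ATF4 and enzymes of serine and folate metabolism. The mitochondrial arm holds 5 chaperones and proteases of the matrix, and the ER arm holds 18 sensors, chaperones, disulfide enzymes and degradation factors. Each member was found in 1 entry, and all 35 were among the 11878 tested genes, whose average over the libraries reached 1 FPKM (fragments scaled to transcript length and to library size). RNA was sequenced from 4 quadriceps labelled Mss51-/- (KO) and 4 labelled wild type (WT), all from female mice aged 6 months that had free access to food, with 1 library per mouse. The study deals, by its title, with metabolism in muscle and the handling of glucose when Mss51 is deleted. How the allele was made, and the strain, are not given in the sources used here.

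The integrated stress response starts when a kinase phosphorylates the translation factor eIF2alpha, which slows general translation but favours that of ATF4. ATF4 then switches on genes of amino acid uptake and synthesis, and in muscle with mitochondrial defects it also raises serine and folate enzymes. In the ER, the sensors IRE1, PERK and ATF6 respond to unfolded protein, and PERK is one of the eIF2alpha kinases, so the ER and ATF4 arms meet there. Matrix chaperones and proteases fold and clear imported proteins in mitochondria. ATF4, XBP1 and ATF6 are controlled largely after transcription, by translation, splicing or cleavage, which one level per gene does not record.

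In the libraries labelled KO, Mss51 itself was not lower but higher, at 340, 201, 216 and 207 FPKM, against 22.9, 37.0, 27.5 and 24.8 FPKM in the libraries labelled WT (limma adjusted p = 0.000643, log2 fold change 3.07). The groups are therefore called by their labels throughout. If the labels were exchanged, the sign of every difference between them given here would turn, and whether they are was not tested. KO replicate 1 stood apart across the series: 6 genes passed an adjusted p of 0.05 with all libraries (6 higher in KO, 0 lower) and 125 without it. Muscle markers were abundant, with a summed level of 50388 to 71438 FPKM in KO libraries and 54434 to 72598 FPKM in WT libraries. However, the fast myosin Myh4 is listed at 0 in every library, and no named entry was found for the muscle actin gene Acta1. Depth was estimated only roughly, at 37.9 to 52.1 M fragments in KO libraries and 39.8 to 59.5 M in WT libraries. In whole muscle, fewer cells of a type and less RNA per cell cannot be told apart.

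The promoters of several members hold matches to elements through which these responses are known to act. In the 250 bases before the RefSeq start (GRCm38.p6, matched for 32 members, not for Hspa9, Atf6 and Derl1), 4 motifs were searched on both strands. The ER stress response element ERSE (CCAAT, any 9 bases, then CCACG), bound by NF-Y with ATF6 or XBP1, was in the windows of 6 members, all of the ER arm, against 0.113% of all 32851 promoter windows. It contains the common CCAAT box. The 7 matches are shown because they are what the promoters of these ER chaperones have in common, with the letters fixed by the motif in capitals and each read on the strand that carries it.
Hspa5 (chr2:34772025-34772043, plus strand): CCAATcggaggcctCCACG
Hsp90b1 (chr10:86705533-86705551, plus strand): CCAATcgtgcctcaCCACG
Hsp90b1 (chr10:86705638-86705656, minus strand): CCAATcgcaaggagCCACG
Dnajc3 (chr14:118937827-118937845, plus strand): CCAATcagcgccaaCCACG
Calr (chr8:84847075-84847093, plus strand): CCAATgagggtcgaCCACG
Canx (chr11:50325800-50325818, minus strand): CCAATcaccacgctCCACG
Pdia6 (chr12:17266491-17266509, plus strand): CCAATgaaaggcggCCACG

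The spacers between the CCAAT and CCACG parts differ in every match. Calr and Canx, which encode the lectin chaperones calreticulin and calnexin, show the element in context. On the gene's own strand (minus for both), the match in Calr reads in the reverse direction and that in Canx in the forward direction, again in capitals.
Calr (chr8:84846935-84847181): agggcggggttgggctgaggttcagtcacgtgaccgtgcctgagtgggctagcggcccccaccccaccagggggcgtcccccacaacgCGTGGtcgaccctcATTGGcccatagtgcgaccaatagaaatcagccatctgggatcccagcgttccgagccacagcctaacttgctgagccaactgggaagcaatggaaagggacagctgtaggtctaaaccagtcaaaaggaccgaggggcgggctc
Canx (chr11:50325674-50325923): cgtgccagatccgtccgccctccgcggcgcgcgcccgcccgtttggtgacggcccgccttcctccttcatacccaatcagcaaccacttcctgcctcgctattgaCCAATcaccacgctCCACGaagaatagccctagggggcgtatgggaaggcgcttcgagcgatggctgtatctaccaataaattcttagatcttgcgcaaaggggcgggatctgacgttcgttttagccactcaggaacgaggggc

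A core of the C/EBP-ATF composite element CARE (TGATGNAA), to which ATF4 binds, was found before Asns, Chac1 and Herpud1 and in 3.45% of all windows. Herpud1 also had the only match among members to the second ER element, ERSE-II (ATTGG, any 1 base, then CCACG, in 0.0304% of windows), so its window holds matches to both elements. The promoters of Chac1 and Herpud1 (plus strand) are shown with these matches in capitals, the CARE core lying on the opposite strand in both.
Chac1 (chr2:119350992-119351228): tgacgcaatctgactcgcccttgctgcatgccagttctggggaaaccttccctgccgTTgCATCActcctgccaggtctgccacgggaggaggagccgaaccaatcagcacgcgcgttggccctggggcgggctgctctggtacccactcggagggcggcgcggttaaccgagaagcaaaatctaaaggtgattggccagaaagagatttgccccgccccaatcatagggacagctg
Herpud1 (chr8:94386179-94386428): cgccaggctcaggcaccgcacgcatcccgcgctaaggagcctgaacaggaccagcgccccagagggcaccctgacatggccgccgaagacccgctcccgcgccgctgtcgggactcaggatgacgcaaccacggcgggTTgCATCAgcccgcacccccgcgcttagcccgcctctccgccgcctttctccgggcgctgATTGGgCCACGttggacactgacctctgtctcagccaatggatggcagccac

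Hspd1 and Hspe1, the matrix chaperonin and its lid, are transcribed in opposite directions from a shared promoter. The heat shock element HSE (GAA, TTC and GAA with any 2 bases between them, in 0.466% of windows) was matched there. The 2 matches lie on opposite strands, 77 to 89 and 72 to 84 bases before the start of Hspe1. They overlap, so they mark the same stretch rather than separate copies. Hspd1 and Hspe1 were the only members with this motif.
Hspe1 and Hspd1 (chr1:55088064-55088076, plus strand): GAAccTTCcgGAA
Hspe1 and Hspd1 (chr1:55088059-55088071, minus strand): GAAggTTCtaGAA

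None of the 35 members passed the limma test over all genes, with 0 called at an adjusted p of 0.05, beside 0.0505% of all genes tested (6 genes, all higher in KO). At an unadjusted p under 0.05 there were 5 of 35 members, beside 10.3% of all genes. Higher in KO libraries were the co-chaperonin gene Hspe1 and the PERK gene Eif2ak3, beside 7.5% of genes in that direction. Lower were the serine synthesis enzyme gene Phgdh, the transcription factor gene Xbp1 and the ER oxidase gene Ero1l, beside 2.76%. The groups did not overlap for 3 members, beside 5.5% of all genes. These were Hspe1, with KO above WT (3.89% of genes), and Phgdh and Ero1l, with KO below WT (1.61%). The counts are too small to set the members apart from other genes, and the smallest adjusted p of a member was 0.347.

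The arms differed in where their members lay. In the ATF4 arm 8 of 12 log2 fold changes (KO minus WT, of FPKM + 0.5) were above 0 with a median of 0.14, in the mitochondrial arm all 5 were above 0 with a median of 0.13, and in the ER arm 16 of 18 were below 0 with a median of -0.080. The median of all genes tested was 0.019, with 54.4% above 0. After rescaling to TPM the median of all genes was -0.18 and the arm medians were -0.049, -0.085 and -0.29. In that rescaling 119 genes were called, 63 higher and 56 lower in KO, none of them a member. The counts above 0 were then 5 of 12, 1 of 5 and 1 of 18. Relative to the median of all genes the arms stood at 0.12, 0.11 and -0.099 as deposited and at 0.13, 0.091 and -0.11 after rescaling. No test was made of a difference between arms, since the members share the same 8 libraries.

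**Figure D1:**
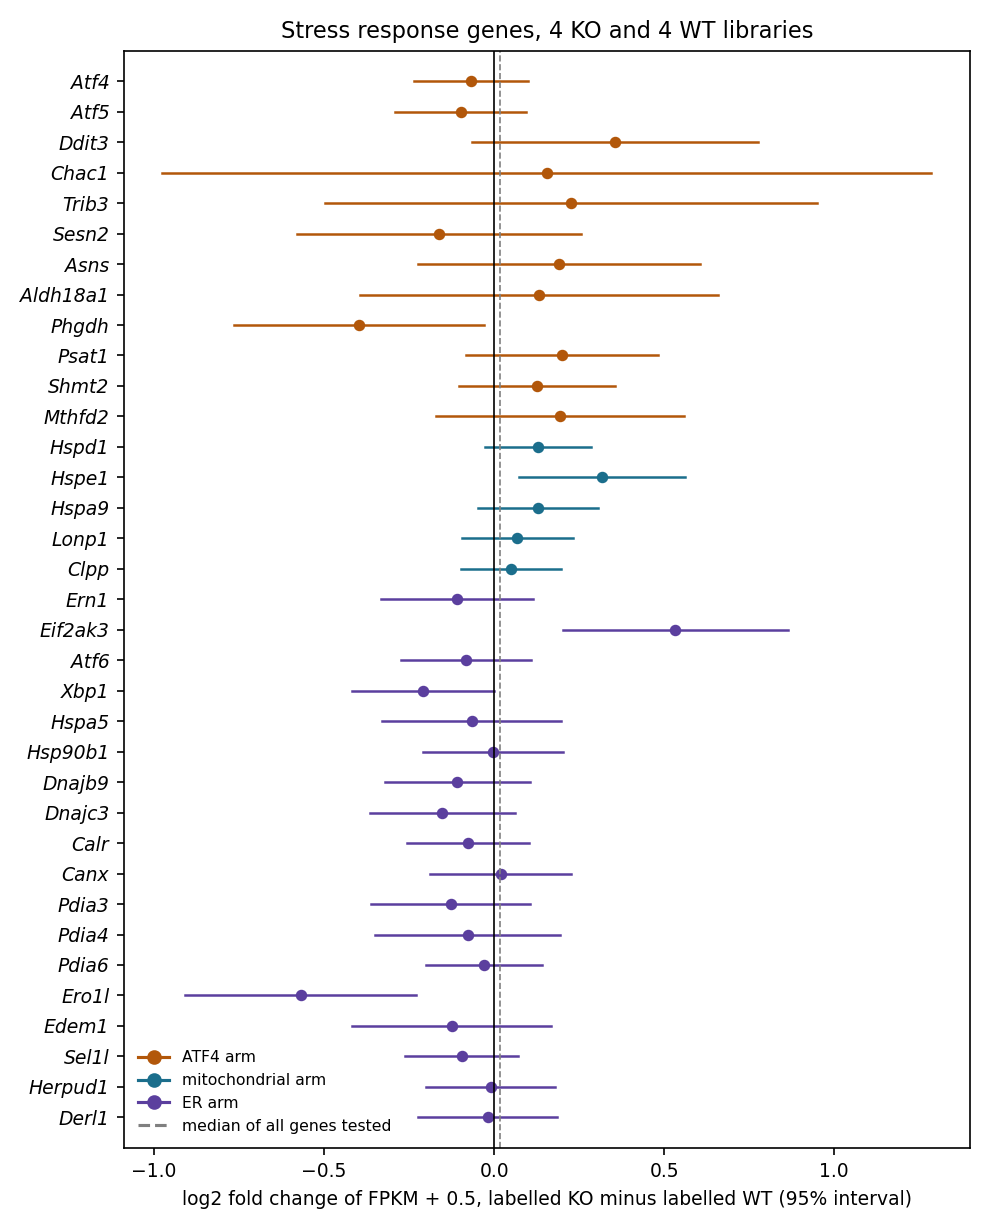
Log2 fold change of each of the 35 members (points, labelled KO minus labelled WT, of FPKM + 0.5) with 95% limma intervals (lines), coloured by arm, with the dashed line at the median of all genes tested. The intervals of Hspe1 and Eif2ak3 lie above 0 and those of Phgdh, Xbp1 and Ero1l below it, but none of the 5 passed after adjustment over all genes.

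Levels differed widely between the members. By mean FPKM over all libraries, the most abundant were Hspe1 (181.6), the mitochondrial Hsp70 gene Hspa9 (156), Atf4 (147), Chac1 (97.8) and Herpud1 (97.2). The least abundant were Trib3 (1.11), Sesn2 (1.46) and Asns (1.88), all ATF4 targets. Of the other amino acid and folate enzymes of the ATF4 arm, Psat1, Phgdh, Aldh18a1 and Mthfd2 lay between 2.06 and 2.32 FPKM, and Shmt2 at 14.6 FPKM. Low values rest on fewer fragments for a given transcript length, and their counting error cannot be given without counts. Spread within groups did not follow level alone. The SD within groups on the log2 scale was 0.85 for Chac1, against 0.49 for Trib3 and 0.14 for Psat1.

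The main transcription factors of the ATF4 arm had fold changes slightly below 0. Atf4 itself had 159, 130.1, 144 and 139 FPKM in KO libraries, against 155, 144, 149 and 150.1 FPKM in WT libraries. The WT values lay inside the KO range. The means were 143 ± 12.2 FPKM in KO libraries and 150 ± 4.37 FPKM in WT libraries (SD, n = 4 each), a log2 fold change of -0.068 with a 95% interval of -0.24 to 0.10. Atf5, a related factor of the mitochondrial stress response, averaged 45.4 ± 3.51 FPKM in KO libraries and 48.7 ± 4.23 FPKM in WT libraries (log2 fold change -0.099, interval -0.29 to 0.094).

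Ddit3, which encodes the factor CHOP induced in prolonged stress, was the member of this arm with the highest fold change. It had 25.1, 20.1, 19.2 and 14.8 FPKM in KO libraries, against 11.4, 18.5, 14.3 and 17.1 FPKM in WT libraries. Only KO replicate 4 lay inside the WT range. The log2 fold change was 0.36 (SE 0.18; limma adjusted p = 0.546), with an interval of -0.064 to 0.77. It was 0.23 without WT replicate 1, 0.24 without KO replicate 1 and 0.15 after rescaling to TPM. Ddit3 overlaps Mars on the opposite strand, and Mars stood at 33.2 ± 1.70 FPKM in KO libraries and 38.0 ± 5.07 FPKM in WT libraries (SD, n = 4 each).

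Chac1 and Trib3 were the members that varied most between mice of the same label, and they are given by library because their values stood out once seen. Chac1, a glutathione-degrading enzyme and a classical ATF4 target, had 39.3, 180.2, 143 and 65.7 FPKM in KO libraries, against 65.4, 57.9, 72.3 and 158 FPKM in WT libraries. High and low libraries occurred under both labels, and the highest was 4.59 times the lowest. Its SD within groups was 0.85 on the log2 scale, higher than that of 97.5% of genes tested, and its interval ran from -0.98 to 1.29 around a log2 fold change of 0.16. Trib3, a pseudokinase that dampens ATF4 output, had 0.892, 2.27, 0.683 and 1.13 FPKM in KO libraries, against 0.741, 0.644, 0.753 and 1.74 FPKM in WT libraries. KO replicate 2 and WT replicate 4 were thus high for both genes, while KO replicate 3 was high for Chac1 alone.

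Among the enzymes of the ATF4 arm only Phgdh was below 0 as deposited. After rescaling to TPM, Phgdh stood at -0.57, Chac1 at -0.058, Aldh18a1 at -0.041 and Shmt2 at -0.078. The median of all genes was then -0.18, so Chac1, Aldh18a1 and Shmt2 were below 0 but above that median. Phgdh, which catalyses the entry step of serine synthesis from glycolysis (chr3:98313170-98339990), had 2.04, 1.602, 1.17 and 2.12 FPKM in KO libraries, against 2.19, 2.49, 2.55 and 2.36 FPKM in WT libraries. Every KO library was below every WT library. The log2 fold change was -0.40 (SE 0.16; limma adjusted p = 0.450). The next enzyme of the same pathway, Psat1, had 2.28, 2.35, 2.24 and 2.68 FPKM in KO libraries, against 2.34, 1.66, 2.12 and 1.96 FPKM in WT libraries. These overlapped only through WT replicate 1, and the log2 fold change was 0.20 (SE 0.12; limma adjusted p = 0.623), or 0.13 without WT replicate 2.

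The mitochondrial serine and folate enzymes lay on the same side as Psat1. Shmt2, which passes a carbon from serine to folate, had 13.5, 17.7, 16.2 and 13.8 FPKM in KO libraries, against 13.8, 12.7, 15.04 and 14.1 FPKM in WT libraries. Mthfd2, the next enzyme of mitochondrial folate, had 2.14, 3.49, 2.202 and 2.27 FPKM in KO libraries, against 1.96, 2.52, 2.01 and 1.97 FPKM in WT libraries. The groups overlapped for both, with log2 fold changes of 0.13 (-0.078 after rescaling to TPM) and 0.19 (limma adjusted p = 0.727 for each). Without KO replicate 2, Shmt2 stood at 0.055 and Mthfd2 at 0.054. Asns, asparagine synthetase, stood at 0.19 (0.10 without KO replicate 2 or without WT replicate 2), Aldh18a1, which starts proline synthesis, at 0.13, and Sesn2, an amino acid sensor of mTORC1 signalling, at -0.16.

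Several of these genes peaked in the same mouse. Of the 8 libraries, KO replicate 2 was the highest for Chac1, Trib3, Asns, Shmt2 and Mthfd2. Among KO libraries alone it was the highest for 5 of the 12 members, beside 26.3% of all genes tested. Without KO replicate 2 the median of the ATF4 arm was 0.015, with 6 of 12 members above 0, against 0.14 with all libraries. WT replicate 2 was the lowest WT library for 8 of the 12 members, beside 31.9% of all genes tested. Without WT replicate 2 the median was 0.047, and without KO replicate 1 it was 0.21.

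**Figure D2:**
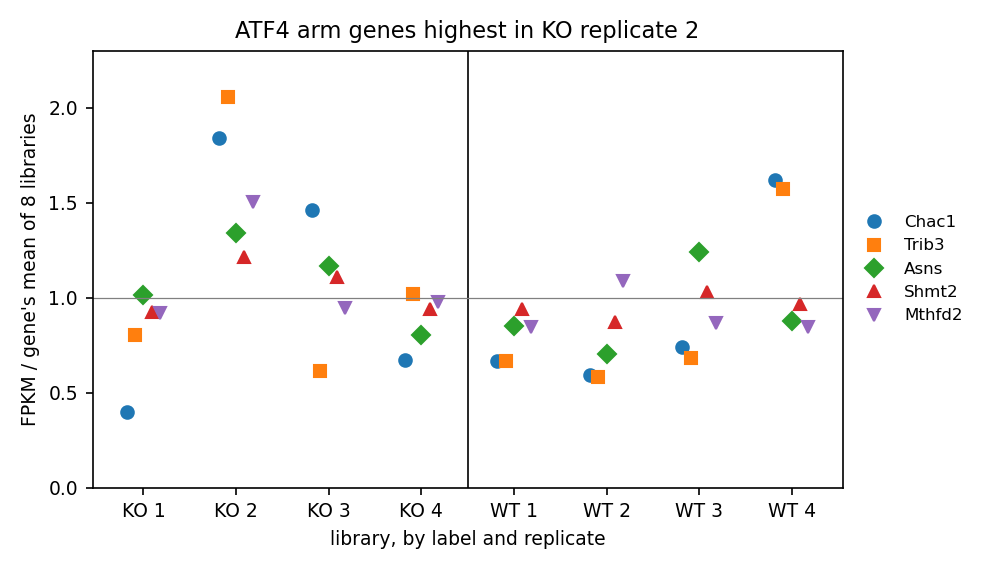
FPKM of 5 ATF4 arm genes in each library, divided by the gene's mean over the 8 libraries (points), with libraries by label and replicate. The 5 genes were chosen because they are highest in KO replicate 2, and the rest of the arm is not shown. WT replicate 4 comes next for Chac1 (158 FPKM) and Trib3 (1.74 FPKM).

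All 5 genes of the mitochondrial arm had fold changes above 0. After rescaling to TPM 4 of them were below 0, but all 5 stayed above the median of all genes. Hspe1, the co-chaperonin Hsp10 (chr1:55088132-55091307), had 184, 212, 232 and 178.6 FPKM in KO libraries, against 140, 166, 162 and 178.1 FPKM in WT libraries. The groups did not overlap, but KO replicate 4 and WT replicate 4 nearly touched. The means were 202 ± 24.9 FPKM in KO libraries and 162 ± 15.9 FPKM in WT libraries (SD, n = 4 each), a log2 fold change of 0.32 (SE 0.11; limma adjusted p = 0.382) with an interval of 0.073 to 0.56. Hspd1, the chaperonin Hsp60 (chr1:55077835-55088243), had 79.7, 86.6, 95.1 and 88.1 FPKM in KO libraries, against 80.5, 76.5, 79.9 and 81.7 FPKM in WT libraries. Here 3 of the 4 KO libraries were above every WT library, and KO replicate 1 was inside the WT range (log2 fold change 0.13, SE 0.069; limma adjusted p = 0.552). The annotated starts of both genes overlap on opposite strands, and with no strand setting given the split of reads there is uncertain.

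Hspa9, the Hsp70 that pulls proteins into the matrix, also had its KO replicate 1 below the other KO libraries. It had 143, 167, 176 and 166 FPKM in KO libraries, against 158, 144, 145 and 147 FPKM in WT libraries. KO replicate 1 was the lowest of all 8 libraries and the other 3 KO libraries were the highest, and the log2 fold change was 0.13 (SE 0.078; limma adjusted p = 0.615). The proteases lay closer to 0. Lonp1, the matrix protease that degrades oxidised proteins, had 30.01, 31.1, 33.2 and 29.9 FPKM in KO libraries, against 28.5, 29.4, 28.0 and 32.6 FPKM in WT libraries. Clpp, the subunit of the ClpXP protease that cuts peptides, had 26.0, 26.2, 26.0 and 28.8 FPKM in KO libraries, against 24.6, 26.8, 25.4 and 26.5 FPKM in WT libraries. The groups overlapped for both genes, with log2 fold changes of 0.069 for Lonp1 and 0.049 for Clpp.

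KO replicate 3 was the highest KO library for 4 of the 5 genes of the mitochondrial arm, beside 15.3% of all genes tested. Without KO replicate 1 the median of the arm was 0.17, with a smallest limma adjusted p of 0.227 among its members. All 5 members stayed above 0 whichever library was left out. With the trend with transcript length removed Clpp was at -0.0040, and after rescaling to TPM only Hspe1 (0.10) was above 0, with the others at -0.16 to -0.083 and the median of all genes at -0.18. Markers of endothelial cells (5 of 5) and of red cells (3 of 3 tested of 5 listed) also lay above 0. Their summed levels were 60.9 to 122 FPKM in KO libraries and 66.8 to 93.7 FPKM in WT libraries for endothelial cells, and 471 to 2156 FPKM in KO libraries and 370.1 to 907 FPKM in WT libraries for red cells. None was called, and their part in the values of the ATF4 and mitochondrial arms was not tested.

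**Figure D3:**
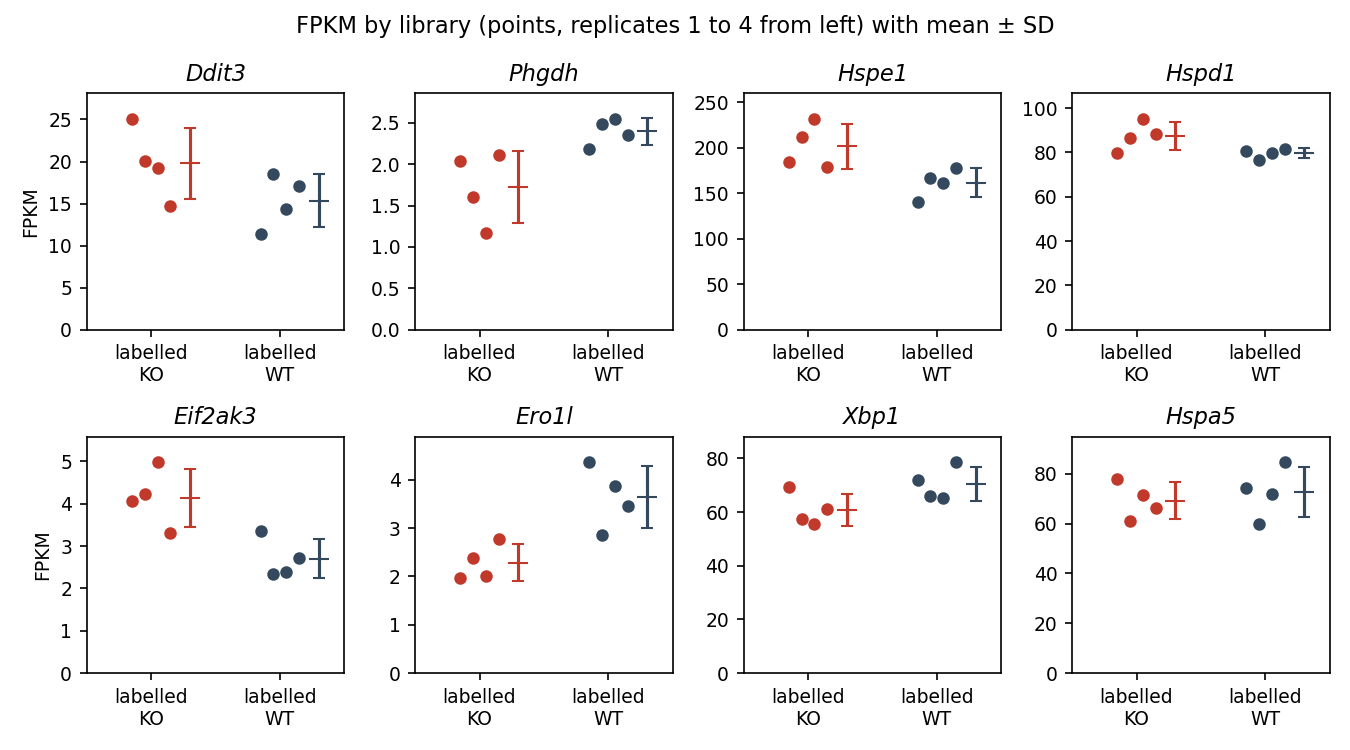
FPKM of 8 members in each library, from all 3 arms, with the mean ± SD of each group beside the points (n = 4, replicates 1 to 4 from left, labelled KO left of labelled WT). The groups do not overlap for Phgdh, Hspe1 and Ero1l, and they overlap for Ddit3, Hspd1, Eif2ak3, Xbp1 and Hspa5.

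In the ER arm the sensors lay on both sides of 0. Eif2ak3, which encodes PERK (chr6:70844515-70905245), had 4.06, 4.23, 4.98 and 3.30 FPKM in KO libraries, against 3.36, 2.35, 2.39 and 2.73 FPKM in WT libraries. Of the KO libraries only replicate 4 was below a WT library, replicate 1. The means were 4.14 ± 0.686 FPKM in KO libraries and 2.71 ± 0.468 FPKM in WT libraries (SD, n = 4 each), a log2 fold change of 0.53 (SE 0.15; limma adjusted p = 0.347) with an interval of 0.20 to 0.86. It stood at 0.45 to 0.63 whichever library was left out. Ern1, which encodes the IRE1 alpha kinase and nuclease, averaged 2.99 ± 0.306 FPKM in KO libraries and 3.26 ± 0.108 FPKM in WT libraries. Atf6 averaged 7.25 ± 0.610 FPKM in KO libraries and 7.70 ± 0.450 FPKM in WT libraries. Their log2 fold changes were -0.11 and -0.082, with intervals that span 0.

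Xbp1, whose mRNA IRE1 splices into the active factor (chr11:5520659-5525893), had 69.2, 57.4, 55.7 and 61.2 FPKM in KO libraries, against 72.0, 65.9, 65.3 and 78.5 FPKM in WT libraries. KO replicates 2 to 4 were below every WT library, and KO replicate 1 was inside the WT range. The log2 fold change was -0.21 (SE 0.092; limma adjusted p = 0.484), and it was -0.27 without KO replicate 1 (adjusted p = 0.209). The files do not separate spliced from unspliced Xbp1.

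Fold changes of the luminal chaperones were close to 0. Hspa5, the ER Hsp70 BiP that holds the sensors inactive, had 78.1, 61.0, 71.6 and 66.4 FPKM in KO libraries, against 74.5, 60.1, 72.0 and 84.6 FPKM in WT libraries. The KO values lay inside the WT range. The log2 fold change was -0.066 with an interval of -0.33 to 0.20. Hsp90b1, the ER Hsp90 GRP94, averaged 42.94 ± 2.2 FPKM in KO libraries and 43.2 ± 4.91 FPKM in WT libraries (log2 fold change -0.0042). Herpud1 and Derl1, factors of the membrane complexes that export misfolded proteins for degradation, stood at -0.0098 and -0.019.

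Among the co-chaperones, Dnajc3, the lumenal J-domain protein p58IPK, had 14.4, 13.2, 13.5 and 15.8 FPKM in KO libraries, against 17.1, 14.7, 17.5 and 14.3 FPKM in WT libraries. The groups overlapped (log2 fold change -0.15, SE 0.094; limma adjusted p = 0.621). Dnajb9, a J-domain partner of BiP, stood at -0.11. Calr and Canx, which retain glycoproteins until they fold, stood at -0.078 and 0.020.

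The disulfide enzymes held the lowest value of the whole set. Ero1l, the oxidase that recharges protein disulfide isomerases (Ero1 alpha, chr14:45283087-45318771), had 1.96, 2.38, 2.00 and 2.79 FPKM in KO libraries, against 4.36, 2.86, 3.87 and 3.46 FPKM in WT libraries. Every KO library was below every WT library, although KO replicate 4 and WT replicate 2 were close. The means were 2.28 ± 0.384 FPKM in KO libraries and 3.64 ± 0.638 FPKM in WT libraries (SD, n = 4 each), a log2 fold change of -0.57 (SE 0.15; limma adjusted p = 0.347) with an interval of -0.91 to -0.23. It stood at -0.66 to -0.49 whichever library was left out. Ero1l lies on the chromosome of Mss51, 24.8 Mb away, and the part of that linkage in its level was not tested. The isomerases Pdia3 (-0.13), Pdia4 (-0.078) and Pdia6 (-0.029), which Ero1 alpha or related oxidases serve, were nearer to 0.

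Of the degradation genes, Sel1l, the adaptor of the Hrd1 ubiquitin ligase, had 15.3, 16.1, 14.7 and 17.3 FPKM in KO libraries, against 17.8, 16.0, 16.8 and 17.2 FPKM in WT libraries. The groups overlapped (log2 fold change -0.096, SE 0.073; limma adjusted p = 0.708). Edem1, which hands glycoproteins to this route, stood at -0.12.

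The 6 ER members with an ERSE in the window had log2 fold changes of -0.15 to 0.020 and a median of -0.048. The 10 other ER members with a window had a median of -0.11 and ran from -0.57 for Ero1l to 0.53 for Eif2ak3, both without any of the searched motifs. The 3 members with a CARE core were Chac1 at 0.16, Asns at 0.19 and Herpud1 at -0.0098.

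Many ER members had their lowest value in the same libraries. WT replicate 2 was the lowest WT library for 12 of the 18 members, beside 31.9% of all genes tested, and KO replicate 3 the lowest KO library for 9 of 18, beside 29.4%. With each library left out in turn the median of the arm was -0.12 to -0.057, and 12 to 16 members were below 0. Without KO replicate 1, 16 of 18 were below 0 and the median was -0.091. Leaving out WT replicate 2 gave a median of -0.12, also with 16 of 18 below 0. Leaving out KO replicate 3 gave -0.058, with 12 of 18 below 0. Of the muscle fibre markers 2 of 6 tested were above 0 (median -0.12), of macrophage markers 2 of 5 tested and of Schwann cell markers 2 of 4. All 5 markers of fibroblasts and all 5 of adipocytes lay below 0. So did all 4 tested of 5 of tendon and all 3 tested of 4 of smooth muscle. Their summed levels were 553 to 824 FPKM in KO libraries and 729 to 800.0 FPKM in WT libraries for fibroblasts, and 65.1 to 120 FPKM in KO libraries and 91.2 to 130 FPKM in WT libraries for adipocytes. For tendon they were 43.5 to 120 FPKM in KO libraries and 64.5 to 131 FPKM in WT libraries, and for smooth muscle 44.1 to 50.6 FPKM in KO libraries and 46.1 to 66.2 FPKM in WT libraries. None of the fibroblast, adipocyte, tendon or smooth muscle markers is listed at 0 or was called, and their part in the ER values was not tested.

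**Figure D4:**
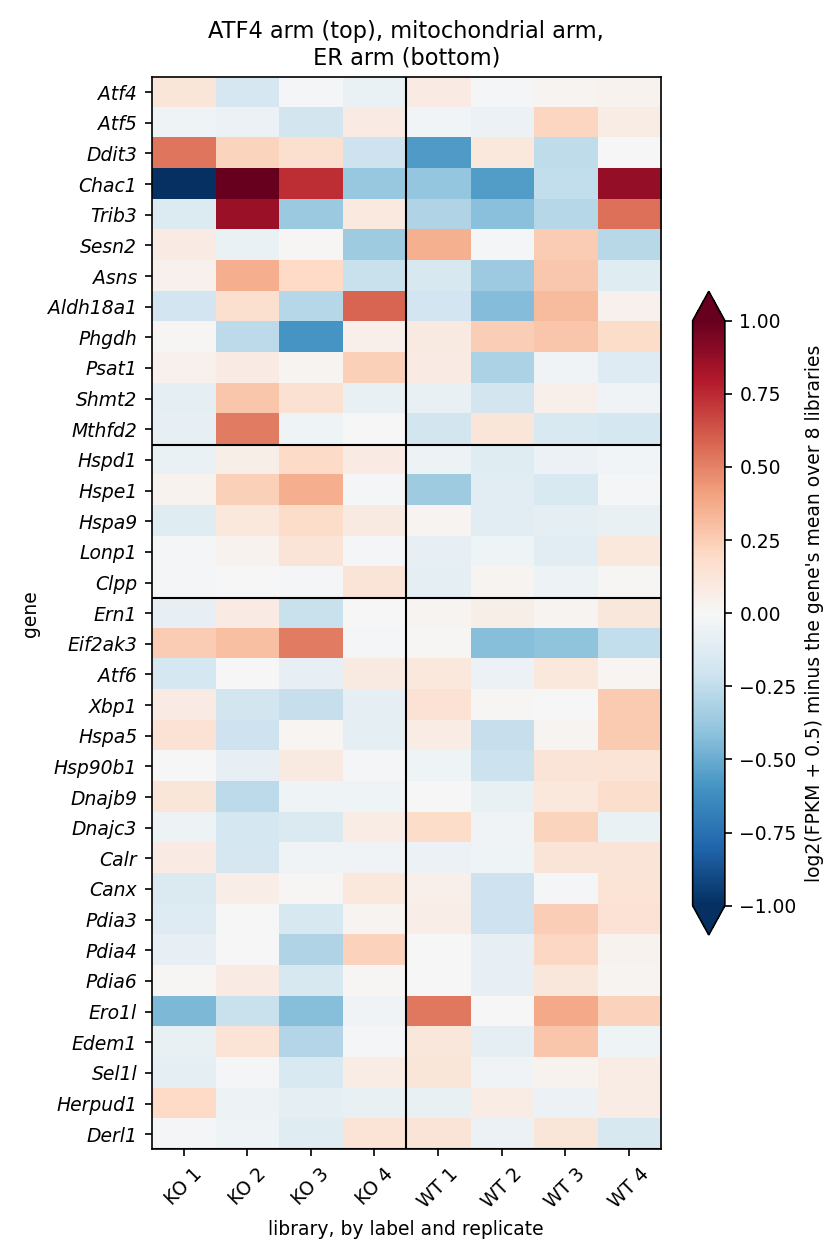
Log2(FPKM + 0.5) of each member minus its mean over the 8 libraries (colour, from -1 to 1), by library (columns, labelled KO left of labelled WT) and gene (rows, by arm). Chac1 and Trib3 vary most under both labels, Eif2ak3 and Ero1l run in opposite directions between the labels, and most ER genes stay pale.

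Other genes of these pathways, from 7 lists, also had 0 calls. The list of other mitochondrial chaperones and proteases had 16 of 18 tested genes above 0 (median 0.098). Its 2 genes below 0 include Lonp2 (-0.061), which encodes a peroxisomal rather than a mitochondrial protease. After rescaling to TPM 4 of 18 were above 0 (median -0.11, against -0.18 for all genes). As deposited, 5 had an unadjusted p under 0.05, all higher (7.5% of all genes). Phb2, a prohibitin of the inner membrane, averaged 119 ± 8.12 FPKM in KO libraries and 95.9 ± 9.06 FPKM in WT libraries, and Htra2, an intermembrane space protease, 14.2 ± 0.542 FPKM in KO libraries and 12.1 ± 1.06 FPKM in WT libraries (SD, n = 4 each). The groups did not overlap for either gene (log2 fold changes 0.31 and 0.23; limma adjusted p = 0.347 and 0.384).

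Other targets of ATF4 lay mostly below 0, with 18 of 21 tested genes there (median -0.11). After rescaling to TPM 21 of 21 were below 0 (median -0.32, against -0.18 for all genes). Relative to the median of all genes the list stood at -0.13 as deposited and at -0.14 after rescaling. As deposited, 3 of these targets were lower at an unadjusted p under 0.05 (2.76% of all genes). With 1 library left out the median ran from -0.21, without KO replicate 4, to -0.077, without WT replicate 3, where 15 of 21 were below 0. Atf3, a stress-induced factor that is also an immediate early gene, had 2.40, 2.71, 3.30 and 3.12 FPKM in KO libraries, against 5.27, 3.51, 5.18 and 6.07 FPKM in WT libraries. The groups did not overlap, and its log2 fold change of -0.69 (SE 0.16; limma adjusted p = 0.336) was larger in size than that of any member. Ppp1r15a, the GADD34 subunit that restores eIF2alpha, stood at -0.30 (limma adjusted p = 0.353). Of this list 6 genes had a mean under 1 FPKM, and for 1 no named entry was found. Among the 6 were Gdf15 and Fgf21, hormones that muscle with mitochondrial defects releases, named after their values were seen. Gdf15 had 0.2501, 0.2511, 0.1002 and 0.415 FPKM in KO libraries, against 0.207, 0.057, 0.143 and 0.0713 FPKM in WT libraries, and Fgf21 is listed at 0 in 6 of the 8 libraries.

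The remaining lists had medians within 0.059 of the median of all genes. Cytosolic tRNA synthetases, a group of ATF4 targets, had 6 of 18 above 0 (median -0.012), led by Mars (-0.18, but -0.095 without WT replicate 3) and Eprs (-0.12). The eIF2alpha kinases and factors had 9 of 17 above 0 (0.021, but -0.19 after rescaling to TPM, against -0.18 for all genes). They were led by Eif2ak2, the kinase PKR (0.37), and Eif2b4, a subunit of the exchange factor eIF2B (0.15). Eif2b4 stood at 0.084 without WT replicate 1 and at -0.062 after rescaling to TPM. Other ER folding genes had 10 of 24 above 0 (-0.015), with Uggt1, the glucosyltransferase that checks glycoprotein folding, at -0.22 and Dnajc1, an ER membrane J protein, at -0.30 (-0.18 without KO replicate 3). Other ER degradation genes had 6 of 17 (-0.040), with the ubiquitin ligase gene March6 at -0.16 and Faf2 at -0.21 (-0.10 without WT replicate 1).

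The list of the ER translocon and sensors had 7 of 18 above 0 (-0.033). Ssr3, of the complex at the translocon, stood at -0.22. Wfs1, an ER membrane protein tied to calcium and stress, had 21.4, 47.0, 38.5 and 40.6 FPKM in KO libraries, against 27.1, 20.6, 26.6 and 24.1 FPKM in WT libraries. KO replicate 1 was inside the WT range and the other 3 KO libraries were above it. The log2 fold change was 0.52 (limma adjusted p = 0.466), and without KO replicate 1 it was 0.76 and passed (limma adjusted p = 0.0276), which no member did.

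**Figure D5:**
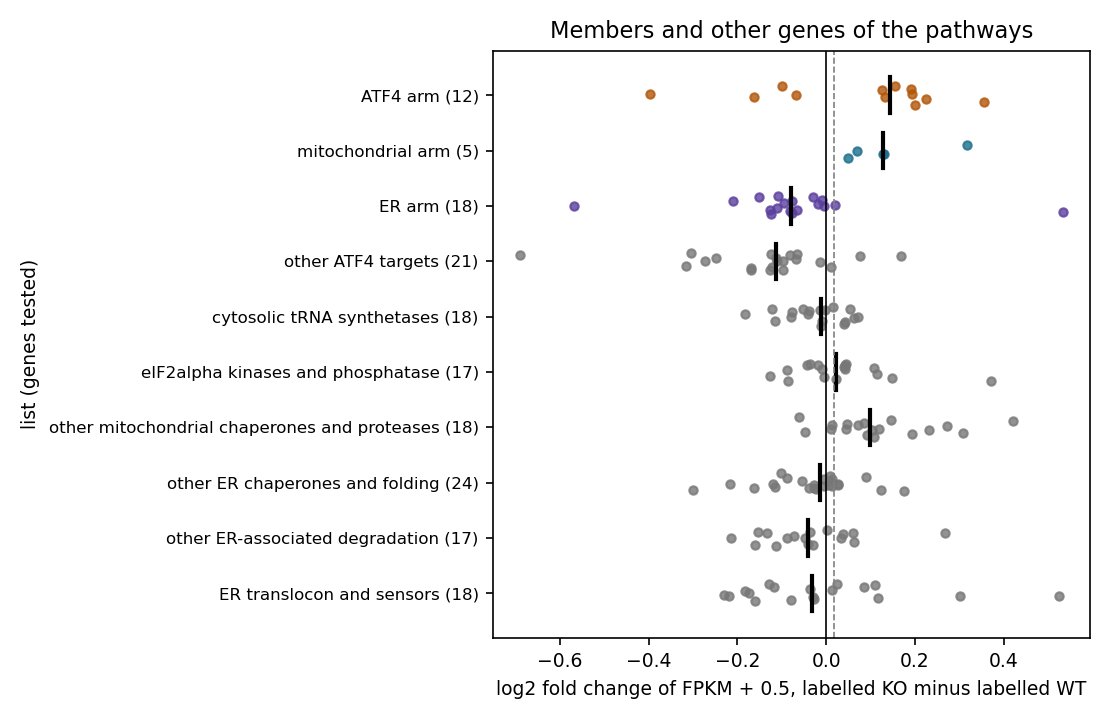
Log2 fold change (labelled KO minus labelled WT, of FPKM + 0.5) of each tested gene (points) in the 3 arms and 7 other lists, with the median of each list (black bars), 0 (solid line) and the median of all genes (dashed line). As deposited, the mitochondrial lists lie to the right (medians 0.13 and 0.098), and the ER arm and other ATF4 targets to the left (-0.080 and -0.11). After rescaling to TPM these medians were -0.085, -0.11, -0.29 and -0.32, against -0.18 for all genes.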

How the data were processed

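RNA of 8 quadriceps libraries was analysed from 1 deposited table each, with FPKM made by the authors, per the file headers. The tools in the submitters' processing notes, listed without roles, are Cufflinks 2.2.1, TopHat2 2.1.1, FastQC and Bowtie2 2.2.6, with the build mm10. Annotation, filters and strand setting are not given in the sources used here, so the values of the 12 members that overlap a gene on the opposite strand are uncertain. Of 46036 entries, 2379 without a name, which made up between 65.8% and 93.2% of all FPKM in each library, were left out, and of 344 repeated names the entry with the highest mean was kept. Counts were not available to this work, and a rough depth was taken from the steps of low FPKM values of genes with 1 transcript, sought between 30 and 100 M fragments.

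KO minus WT was fitted on log2(FPKM + 0.5), which understates changes of low genes, for 11878 genes averaging 1 FPKM or more, with limma 3.58.1 in R 4.3.3 (genotype only, variances with a mean trend, two-sided). Benjamini-Hochberg adjustment ran over all genes tested, with a threshold of 0.05. Members, arms and lists were chosen with earlier results of these data known, so arms and lists are described by counts and medians without a test. Values by library are given for the 5 members of each arm with the smallest p and for Atf4, Ddit3, Hspd1, Hspa5 and Xbp1. Of other lists the 2 genes with the smallest p are named. Positions are from GENCODE M21 and promoters from RefSeq (GRCm38.p6), long stretches printed only outside GENCODE exons. Alternatives changed the pseudocount, filter, scaling, variances, weights, repeated names, replicate block or the libraries used, and removal of the trend with transcript length was added after seeing the data.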

Additional observations from a re-analysis of the deposited data

Results flagged for a closer look

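In 6 of the 70 sets of 4 values (35 members under 2 labels), 1 library was far from the other 3 by Dixon's criterion, which chance meets in about 1 of 20 sets. Chac1 at 158.4 FPKM and Trib3 at 1.739 FPKM were both high in WT replicate 4. Mthfd2 was high in KO replicate 2 at 3.494 FPKM and in WT replicate 2 at 2.524 FPKM. Clpp was high in KO replicate 4 at 28.84 FPKM, and Herpud1 in KO replicate 1 at 111.6 FPKM.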

How the results depend on the processing

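No member passed under any of 20 alternatives, the smallest limma adjusted p being 0.209 (Xbp1 without KO replicate 1). Of 689 member values, 655 kept their sign. In that count, robust variances, the replicate block, summed repeated names and the changes of filter could not turn a sign. They leave a member's log2 fold change as it was. Rescaling to TPM gave 119 calls over all genes (270 at an unadjusted p under 0.05), against 6, arm medians of -0.049 (ATF4), -0.085 (mitochondrial) and -0.29 (ER), and log2 fold changes turned for Chac1 (-0.058), Aldh18a1 (-0.041), Shmt2 (-0.078), Hspd1 (-0.083), Hspa9 (-0.085), Lonp1 (-0.14), Clpp (-0.16), Canx (-0.19) and Eif2b4 (-0.062). The rescaling to TPM divided each library by its summed FPKM of named genes. As deposited, this sum was 1679000 in KO replicate 4 and 1124000 in WT replicate 3, against 620100 to 718100 in the other libraries. The median of all genes went from 0.019 as deposited to -0.18 after rescaling. Quantile normalization gave a mitochondrial median of 0.037 and Canx at -0.023, the median ratio put Canx at -0.0064, and removal of the length trend put Clpp at -0.0040. With each library left out in turn, calls over all genes ran from 4 to 125 and the ATF4 arm median from 0.015 to 0.21. The log2 fold changes that turned then ran from -0.18 to 0.55 (Chac1), -0.023 to 0.45 (Trib3), -0.041 to 0.26 (Aldh18a1), -0.15 to 0.0091 (Hspa5), -0.075 to 0.042 (Hsp90b1), -0.045 to 0.072 (Canx), -0.17 to 0.010 (Pdia4), -0.061 to 0.020 (Pdia6), -0.079 to 0.019 (Herpud1) and -0.075 to 0.021 (Derl1). With the replicate block limma called 0 genes (958 at an unadjusted p under 0.05), but same-numbered libraries did not deviate together (correlations -0.0809 to 0.00933 over 4 pairs), so the numbers were not taken as pairs. Why the summed FPKM differ between libraries was not tested, nor was the cause of the other shifts. Without counts, no counting interval can be given, also not for values near 1 FPKM, which rest on the fewest fragments for a given transcript length.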
